A study of Mus musculus with 491 samples.

Results

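Hes1, Hes5, Hes6, Hey1, Hey2 and Heyl are the 6 Hes and Hey genes followed here, out of 19494 genes measured in single cells. They were chosen by name, and each had its own row in the expression table. The cells came from otic vesicle with periotic tissue of E10.5 mouse embryos of the genotype Pax2-Cre/+;Ai14-tdTomato/+. They were sorted 1 cell to a well for tdTomato, so every cell carries both transgenes, and the red label marks past as well as present Cre activity. Titles assign 237 cells to replicate 1 and 254 cells to replicate 2, on 6 plates. The labels do not say whether a replicate is an embryo, a litter or a day, or how many embryos were pooled. Every p-value below therefore rests only on how far the differences between classes varied between these 2 sets of cells. That spread was estimated over 8 classes together, with a shift common to all classes of a replicate taken out.

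Hes and Hey proteins are basic helix-loop-helix repressors. When a Notch receptor is cleaved after binding a ligand on the neighbouring cell, its intracellular part joins RBPJ on DNA and switches on Hes1, Hes5 and the Hey genes, whose proteins silence proneural genes such as Neurog1 and keep a cell a progenitor. Hes6 is the exception of the family: it is switched on by proneural factors, antagonises Hes1 and favours neuronal differentiation. In the ear this circuit selects which otic epithelial cells leave as neuroblasts, and in the neural tube it holds back part of the progenitors from becoming neurons.

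The Hes proteins recruit Groucho/TLE co-repressors through a tetrapeptide near their carboxyl end, and the end of the reading frame separates the subfamilies. The last 48 coding bases, stop codon included, are given 5′ to 3′ from the GENCODE M21 transcripts. Capitals mark the codons of the tetrapeptide in the Hes genes and of its counterpart by position in the Hey genes. Binding of co-repressors was not measured.
Hes1: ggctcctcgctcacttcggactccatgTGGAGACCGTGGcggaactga
Hes5: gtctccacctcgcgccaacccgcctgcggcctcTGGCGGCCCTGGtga
Hes6: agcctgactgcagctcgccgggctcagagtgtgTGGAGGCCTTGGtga
Hey1: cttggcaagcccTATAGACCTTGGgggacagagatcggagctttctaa
Hey2: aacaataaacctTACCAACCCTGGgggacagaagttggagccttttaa
Heyl: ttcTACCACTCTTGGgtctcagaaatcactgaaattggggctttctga
The tetrapeptide is followed directly by the stop codon in Hes5 and Hes6 and by 2 codons in Hes1. In Hey1 and Hey2 7 codons follow the counterpart, and in Heyl 10. Coding lengths ran from 504 bases in Hes5 to 1020 in Hey2, stop codon included.

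Hes5 and Hes6 turned out to differ most between the cell classes, so the 250 bases before their starts are shown (RefSeq, GRCm38.p6), with each match to GTGGGAA, a high-affinity RBPJ site, in capitals. The search covered both strands, and a match on the reverse strand reads TTCCCAC.
Hes5, chr4:154960673-154960922, plus strand: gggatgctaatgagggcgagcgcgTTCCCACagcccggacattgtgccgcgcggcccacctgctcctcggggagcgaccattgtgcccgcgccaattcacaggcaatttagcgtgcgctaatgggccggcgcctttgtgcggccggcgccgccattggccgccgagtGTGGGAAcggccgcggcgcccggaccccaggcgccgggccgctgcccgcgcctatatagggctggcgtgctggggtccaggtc
Hes6, chr1:91414039-91414288, minus strand: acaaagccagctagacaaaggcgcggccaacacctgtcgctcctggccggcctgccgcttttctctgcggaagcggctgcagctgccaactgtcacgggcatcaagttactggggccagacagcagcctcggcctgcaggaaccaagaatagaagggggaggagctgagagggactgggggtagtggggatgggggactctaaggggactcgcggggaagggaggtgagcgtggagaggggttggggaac
The Hes5 window holds 2 matches, from 226 to 220 and from 83 to 77 bases before the start, the farther of them on the reverse strand. At least 1 match occurred in 5.4% of all 32851 promoter windows of this length and at least 2 in 0.16%. Neither of the 2 Hes6 windows holds a match, and the Hey2 window holds 1. Hes1, Hey1 and Heyl had no window in the promoter set used, so they were not searched. These are letter matches only, and no binding was measured. The Hes1 gene lies at chromosome 16, 30064384 to 30067796, Hes5 at chromosome 4, 154960923 to 154962371, Hes6 at chromosome 1, 91411483 to 91414038, Hey1 at chromosome 3, 8663359 to 8667256, Hey2 at chromosome 10, 30832359 to 30842801, and Heyl at chromosome 4, 123233556 to 123249875 (GRCm38).

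Cells were sorted into classes by 79 marker genes, none of them a member, and each class name ends in "-like" because no label names a cell type. Oc90 was found in 40.8% to 86.7% of the cells of the 3 otic clusters and in at most 16.3% of any other cluster. The main classes were otic epithelium-like (136 cells), early neuroblast-like (49), differentiating neuron-like (39), epibranchial neuron-like (33) and neural tube progenitor-like (111). Cluster 2 (54 cells) kept its number: it led the hindbrain neuron markers, with Lhx5 in 29.6% of its cells, but Fabp7, a neural tube progenitor marker, was found in 66.7% and Neurod1, a neuroblast marker, in 68.5%. Surface ectoderm-like (42), mesenchyme-like (23) and neural crest or glial precursor-like (4) cells made up the rest. A gene counts as detected at an FPKM (fragments scaled to transcript length and library size) of at least 1, and depth in reads is unknown. Cells had 2552 to 6403 detected genes, with class medians from 4194 in cluster 2 to 5215 in mesenchyme-like cells. At least 3 endothelial or macrophage markers were found in 7 cells, of which 3 were early neuroblast-like, 3 neural tube progenitor-like and 1 otic epithelium-like.

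Some wells also carried transcripts of another well, mostly a neighbouring one. Over the 3 plates of a replicate, 19 pairs of well rows were linked in both replicates, 17 of them adjacent rows of 1 plate, and a receiving well held a median of 4.9% of what its source well held. A linked source existed for 337 cells and not for the other 154. Values are therefore given as deposited, after a correction ("corrected"), and in the 154 cells without a source. For each linked pair of rows and replicate, the median percentage of the source value was taken, and these medians reached 14.9%. A value was set to 0 where it was at most 4 times that percentage of its source value. The correction can also remove true values, and not only low ones. It lowered the number of cells with Hes5 from 219 to 146, with Hes1 from 364 to 276, with Hes6 from 428 to 350 and with Hey1 from 284 to 221, and it took Heyl from 50 to 40 and Hey2 from 30 to 28.

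Hes6 was the most widely detected member, found in 87.2% of all cells (95% exact interval 83.9 to 90.0, counting error only, as for all intervals here). Its level separated the placodal neuronal lineage from every other class. The mean log2(FPKM + 1) in replicates 1 and 2 was 8.94 and 9.3 in early neuroblast-like cells, 8.41 and 8.99 in epibranchial neuron-like cells, and 8.43 and 8.61 in differentiating neuron-like cells. The range of the epibranchial class overlapped both others, early neuroblast-like cells lay above differentiating neuron-like cells in both replicates, and all 3 lay above cluster 2, at 6.75 and 7.31. Surface ectoderm-like cells had 5.23 and 5.4, otic epithelium-like cells 5.18 and 4.86, neural tube progenitor-like cells 4.81 and 4.62, and mesenchyme-like cells 4.01 and 4.93. In FPKM, the median early neuroblast-like cell held 920 and the highest 2670, against a median of 63.4 in otic epithelium-like and 50.4 in neural tube progenitor-like cells. All 39 differentiating neuron-like cells had Hes6, as deposited and after correction.

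**Figure D1:**
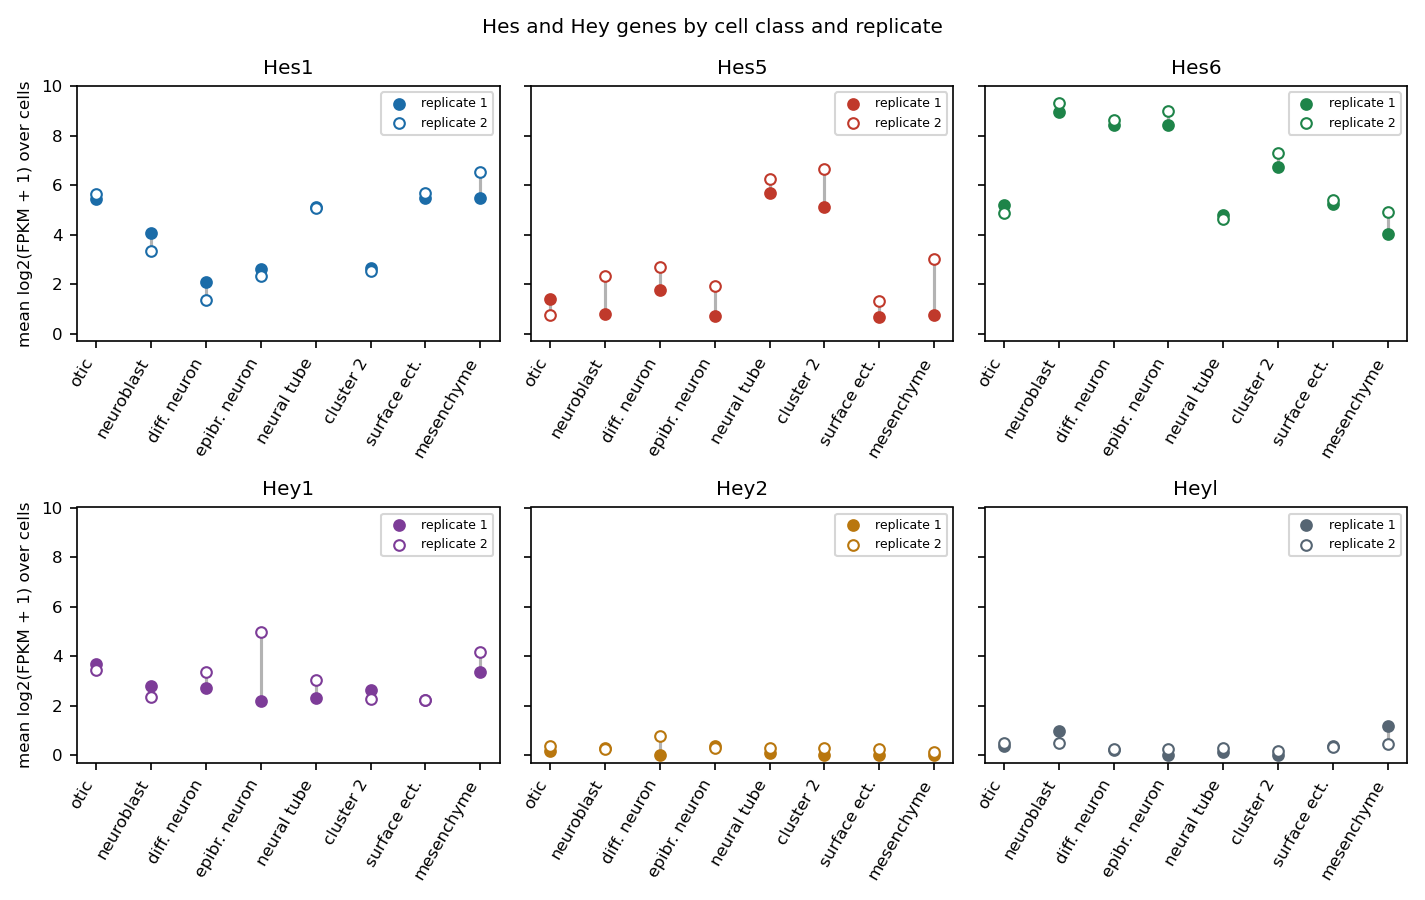
Mean log2(FPKM + 1) over the cells of each class, with 1 panel per gene, the 8 classes along the x axis, filled points for replicate 1 and open points for replicate 2. Hes6 is highest in the neuroblast and neuron classes, Hes5 in neural tube progenitor-like cells and cluster 2, and Hes1 is lowest in the neuron classes and cluster 2.

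Hes1, the Notch effector found across most progenitor tissues, ran broadly the other way. Its mean log2(FPKM + 1) by replicate was 5.47 and 6.52 in mesenchyme-like cells, 5.47 and 5.67 in surface ectoderm-like cells and 5.44 and 5.66 in otic epithelium-like cells. Those 3 classes overlapped. Neural tube progenitor-like cells came just under them at 5.12 and 5.06, and early neuroblast-like cells at 4.07 and 3.35. Cluster 2 (2.67 and 2.53), epibranchial neuron-like cells (2.6 and 2.35) and differentiating neuron-like cells (2.09 and 1.38) were lowest. Detection moved with the level. Hes1 was found in 86.0% of otic epithelium-like (interval 79.0 to 91.4), 85.6% of neural tube progenitor-like, 59.2% of early neuroblast-like (44.2 to 73.0) and 41.0% of differentiating neuron-like cells (25.6 to 57.9). After correction these shares were 66.9%, 75.7%, 44.9% and 15.4%. In wells without a source they were 82.9%, 82.6%, 42.9% and 18.2%.

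As deposited, the Hes1 values within the neuroblast class were spread widely rather than uniformly low, and those of otic epithelium-like cells were spread widely too. The median cell held 5.12 FPKM, but the 29 cells with the gene had a median of 92.9 FPKM, close to the 112 of the 117 otic epithelium-like cells with it. By contrast, the 16 differentiating neuron-like cells with Hes1 had a median of 19.3 FPKM.

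Hes5, the Hes gene most used by neural progenitors of the central nervous system, had the narrowest distribution of the abundant members. Its mean log2(FPKM + 1) by replicate was 5.70 and 6.25 in neural tube progenitor-like cells and 5.13 and 6.65 in cluster 2, which overlapped. The next class, differentiating neuron-like, had 1.76 and 2.69, and otic epithelium-like cells 1.42 and 0.75. Classes below cluster 2 overlapped each neighbour in the order. Hes5 was found in 77.5% of neural tube progenitor-like cells (68.6 to 84.9) and in 75.9% of cluster 2 cells (62.4 to 86.5). Among cells with the gene, the median was 238 FPKM in the former and 553 in the latter.

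Most otic epithelium-like cells with Hes5 as deposited lost it under the correction. As deposited, 33 of 136 otic epithelium-like cells had Hes5 (24.3%), with a median of 23.3 FPKM among them. After correction 8 cells did (5.9%), and in wells without a source 3 of 41 (7.3%). The neural tube share moved less, from 77.5% to 73.0% after correction and to 67.4% without a source well. In early neuroblast-like cells Hes5 was found in 32.7% as deposited and in 14.3% under each of the other treatments. Its highest value in that class, 2140 FPKM, was kept by the correction, and a single neuroblast-like cell had Hes5 as its highest member.

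**Figure D2:**
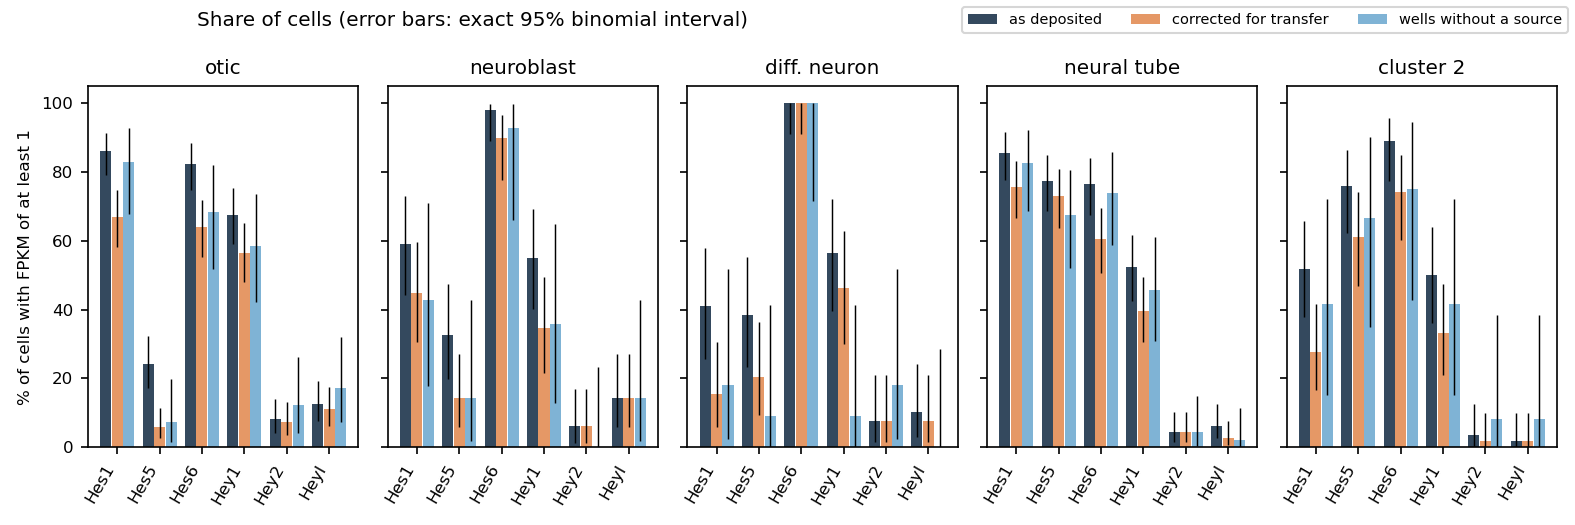
Percentage of cells with an FPKM of at least 1 for each gene in 5 classes, with dark bars as deposited, orange bars corrected for transfer between wells and blue bars in wells without a source. Error bars are exact 95% binomial intervals, and Hes5 in otic epithelium-like cells drops from 24.3% to 5.9% after correction while in neural tube progenitor-like cells it moves from 77.5% to 73.0%.

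Hey1, which Notch induces in many epithelia and which marks prosensory territory of the ear at later stages, was moderate everywhere. Otic epithelium-like cells held it in 67.6% of cases (59.1 to 75.4), with 3.69 and 3.45 as mean log2(FPKM + 1) by replicate. The other classes ranged from 50.0% in cluster 2 and surface ectoderm-like cells to 60.9% in mesenchyme-like cells, apart from the 4 neural crest or glial precursor-like cells, of which 3 had it. Epibranchial neuron-like cells differed between replicates, with 2.19 in replicate 1 and 4.98 in replicate 2. In differentiating neuron-like cells Hey1 was found in 22 of 39 as deposited, 18 after correction, and 1 of 11 without a source well.

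Hey2 and Heyl were rare. Hey2, best known from arteries, the heart and the later cochlea, was found in 30 cells (6.1%), and the class shares lay between 2.4% and 8.1% apart from mesenchyme-like cells, 0 of 23, and the neural crest or glial precursor-like cells, 3 of 4. A count of 0 among 23 allows a share of up to 13.0%, taken as 3 cells of the total, or 14.8% by the exact interval, and 1 of these cells held Hey2 below the detection level, at 0.824 FPKM. Heyl was found in 50 cells, from 1.9% of cluster 2 to 30.4% of mesenchyme-like cells (13.2 to 52.9). Among all cells with the gene, the median was 20.5 FPKM for Hey2 and 10.8 for Heyl, against 113 for Hes6.

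**Figure D3:**
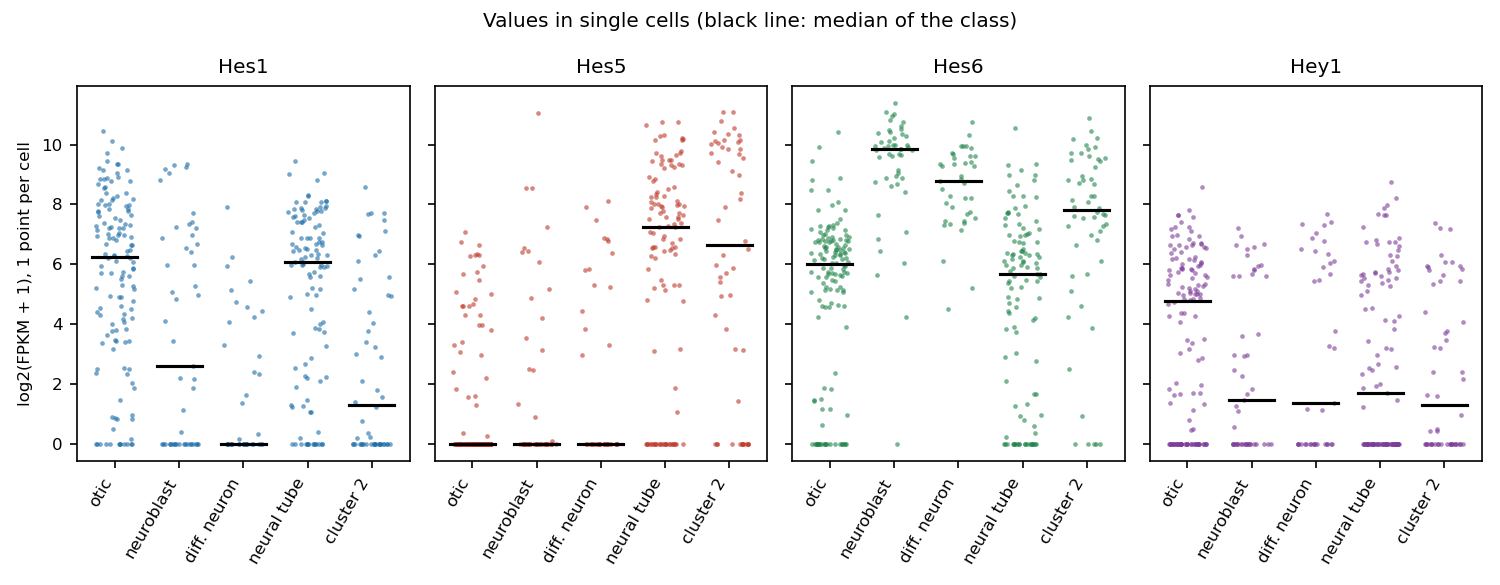
log2(FPKM + 1) of Hes1, Hes5, Hes6 and Hey1 in each cell (points, spread sideways at random) of 5 classes, with a black line at the class median. Early neuroblast-like cells hold Hes6 at a median of 920 FPKM, while their Hes1 values range from 0 up to values close to those of otic epithelium-like cells.

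Early neuroblast-like against otic epithelium-like cells asks what happens to the repressors as neuroblasts form. Hes6 rose and Hes1 fell. Hes6 was higher by 4.1 on the log2 scale (SE 0.29, limma adjusted p = 1.29e-07), with 3.76 in replicate 1 and 4.45 in replicate 2, and it was higher on 6 of 6 plates. Hes1 fell by 1.84 (SE 0.43, adjusted p = 0.0165), with −1.37 and −2.31 by replicate and lower values on 6 of 6 plates. Thus 2 of 6 members were called at an adjusted p below 0.05, where 4.54% of all 10185 genes tested were called, 1.45% higher and 3.08% lower. Hes5 differed by 0.47 with opposite signs in the replicates (−0.64 and 1.58, adjusted p = 0.815), and Hey1 by −1.01 (adjusted p = 0.496).

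The Hes1 fall is the less firm of the pair. With values corrected for transfer it was −1.53 (adjusted p = 0.0615), with FPKM averaged before the log −0.64 (0.191), and in wells without a source −2.73 (0.204). Hes6 stayed called under all 9 alternatives that have a test. A pseudocount of 1 was added before the log, which shrinks differences between low values. Each class mean also includes the cells without the gene, so a difference can exceed that of averaged FPKM, as for Hes1.

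The other Notch genes moved unevenly in this comparison. Of 6 Notch ligands tested, Dll1 (1.5, adjusted p = 0.0386) and Dll3 (2.77, 0.00121) rose and Jag1 (−1.81, 0.0468) fell. Dll1 is the ligand displayed by newly selected neuroblasts, Dll3 acts inside the cell against Notch signalling, and Jag1 marks prosensory otic epithelium. None of 3 receptors tested was called. Mfng, a Fringe glycosyltransferase that modifies the receptor, rose by 2.93 (0.000655), alone among 5 Fringe and glycosylation genes. Of 8 proneural targets tested, 5 rose: Dll1, Dll3, Mfng, Btg2 (1.70, 0.0289) and Cbfa2t2 (1.67, 0.0154). Their list had a median of 1.59, against −0.08 over all genes. Id2 (−2.76), Id3 (−3.75) and Id4 (−2.66), which bind E proteins and so hold back proneural factors, fell, as 3 of 7 Id and E protein genes. No TLE co-repressor or partner (8 tested) was called.

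Differentiating neuron-like against early neuroblast-like cells carries the sequence to neurons. Hes1 fell further, by 1.97 (SE 0.43, adjusted p = 0.00712), with −1.98 and −1.97 by replicate and lower values on 5 of 6 plates. It was the single member called of 6, where 8.09% of genes were called, 4.35% higher and 3.74% lower. It was −2.45 (adjusted p = 0.315) in wells without a source and −1.69 (0.0849) with classes taken from the highest marker score. Hes6 differed by −0.60 (−0.50 and −0.69, adjusted p = 0.234), so the values remained high. Called with it among the pathway genes were Lfng (−0.59, 0.0402), the Fringe gene of the otic neurogenic domain, Snw1 (−1.32, 0.0440), a partner of RBPJ, and Id3 (−1.56, 0.00333), all lower. No ligand, receptor or proneural target was called.

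Neural tube progenitor-like against otic epithelium-like cells sets the progenitor pools of the ear and the hindbrain region side by side. Hes5 was higher by 4.89 (SE 0.54, adjusted p = 1.07e-05), with 4.28 and 5.5 by replicate and 6 of 6 plates. In FPKM the median neural tube progenitor-like cell had 152 Hes5 and the median otic epithelium-like cell 0. Hes5 alone of the 6 members was called, where 5.63% of genes were, 1.37% higher and 4.25% lower. Hes1 (−0.46, adjusted p = 0.782), Hes6 (−0.30, 0.777) and Hey1 (−0.88, 0.605) did not pass the test. Without source wells the Hes5 difference was 5.18 (adjusted p = 0.197), from fewer cells. Dll1 (1.54, 0.0280), Nrarp (1.94, 0.0215) and Dtx4 (1.61, 0.00126) rose with Hes5, and Jag1 fell by 2.12 (0.0151). Nrarp is a Notch target that limits the pathway, and Dtx4 is an E3 ligase of the Deltex family. Tcf12, an E protein, rose by 1.87 (0.0330) and Id3 fell by 1.07 (0.0498). Of the 3 receptors and the 5 Fringe and glycosylation genes, none was called.

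**Figure D4:**
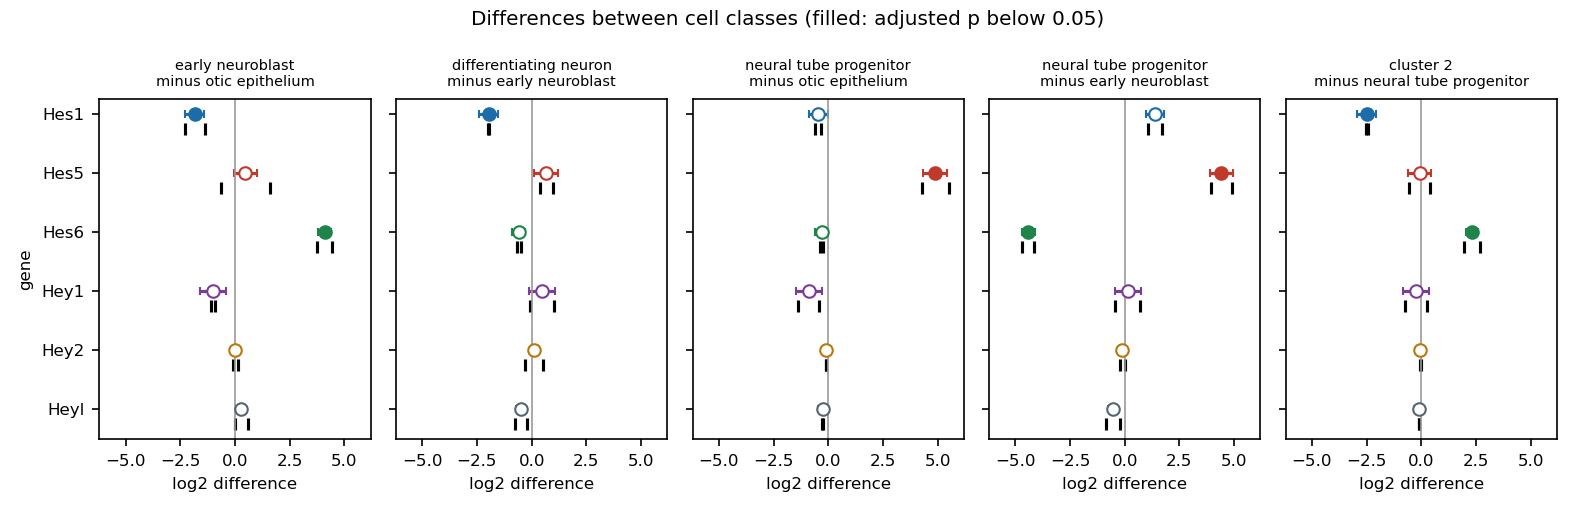
log2 differences of the 6 genes in 5 comparisons of classes (points, with bars of 1 SE), filled where the limma adjusted p is below 0.05, and black ticks for the difference in each replicate. Hes6 is filled at 4.1 for neuroblasts against otic cells and Hes5 at 4.89 for neural tube against otic cells, and no Hey gene is filled.

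Neural tube progenitor-like against early neuroblast-like cells gave the clearest exchange of members. Hes5 was higher by 4.42 (SE 0.54, adjusted p = 6.28e-05; 4.92 and 3.92 by replicate) and Hes6 was lower by 4.41 (SE 0.29, 3.28e-08; −4.13 and −4.69), each on 6 of 6 plates. These 2 of 6 members were called where 4.13% of genes were, 1.55% higher and 2.58% lower. This comparison shares its classes with those above, so its Hes6 and Hes5 values are no separate evidence. Hes1 differed by 1.38 (1.06 and 1.71, adjusted p = 0.0922). The Hes5 call was lost in wells without a source (4.80, adjusted p = 0.226) and with classes from the highest marker score (3.24, 0.219), while Hes6 stayed called under all 9 alternatives. Dtx4 (2.24), Tcf12 (2.09), Id2 (2.53), Id3 (2.68) and Id4 (2.39) were higher in neural tube progenitor-like cells. Dll3 (−2.01), Mfng (−1.75) and Cbfa2t2 (−1.58) were lower.

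Cluster 2 against neural tube progenitor-like cells sets cells with early neuronal genes beside the progenitors. Hes1 fell by 2.49 (SE 0.43, adjusted p = 0.00143; −2.45 and −2.53) and Hes6 rose by 2.32 (SE 0.29, 5.54e-05; 1.95 and 2.69), each on 6 of 6 plates. Hes5 differed by −0.08 (−0.57 and 0.41, adjusted p = 0.966). Called were 2 of 6 members and 6.88% of genes, 2.58% higher and 4.3% lower. In wells without a source, of which cluster 2 has 12 cells, Hes6 differed by 1.2 (adjusted p = 0.646) and Hes1 by −2.55 (0.248). With classes from the highest marker score Hes6 differed by 1.12 (0.449). Dll3 rose by 4.88 (7.11e-06), Tle1, a co-repressor bound by Hes proteins, by 2.59 (0.000950), Mfng by 2.52 (0.00205), Cbfa2t2 by 1.85 (0.00599) and Dner, a neuronal Notch ligand, by 1.36 (0.00177). The Notch target Nrarp (−1.78, 0.0324) and the Deltex family gene Dtx4 (−1.74, 0.000709) fell, as did Id2 (−2.05), Id3 (−3.44) and Id4 (−1.98). Across the 5 comparisons Hey1, Hey2 and Heyl were never called, and none of 6 other Hes-related genes (Hes2, Hes3, Hes7, Helt, Bhlhe40, Bhlhe41) was among the genes tested.

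The member with the highest FPKM in each cell gives the same picture without averaging. It was Hes6 in 42 of 49 early neuroblast-like, 37 of 39 differentiating neuron-like and 32 of 33 epibranchial neuron-like cells. Hes1 was highest in 68 of 136 otic epithelium-like cells, ahead of Hes6 in 45, Hey1 in 15 and Hes5 in 4. Hes5 led in 61 of 111 neural tube progenitor-like cells, with Hes6 in 26 and Hes1 in 22. Cluster 2 was divided between Hes5 and Hes6, with 25 cells each, and Hes1 led in 0 of 54. After correction the counts were 41 of 49 for Hes6 in neuroblast-like cells, 67 of 136 for Hes1 in otic cells and 59 of 111 for Hes5 in neural tube cells.

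As deposited, the abundant members were mostly found together within a class about as often as the product of their shares gives. Most cells held several members at once, with a median of 3 of 6 detected, or 2 of 6 after correction. Hes1 and Hes6 were found together in 97 of 136 otic epithelium-like cells, where the product of their shares within each replicate gives 96.3. The pair was found in 69 of 111 neural tube progenitor-like cells (product 72.9) and in 28 of 49 early neuroblast-like cells (28.5). Only 1 of those 49 cells lacked Hes6, so the neuroblast count could hardly depart from the product and says little about the pair. Hes5 and Hes6 were found together in 66 of 111 neural tube progenitor-like cells, against a product of 66.0. The Hes1 and Hes5 pair was found in 77 of those cells, against 73.9.

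After correction Hes1 and Hes6 were found together in fewer early neuroblast-like cells than the product gives, 17 against 19.7. All 49 of those cells had at least 1 of the pair: 5 had Hes1 alone and 27 Hes6 alone. Mean log2 Hes6 was 7.59 in the 22 cells with Hes1 and 9.55 in the 27 without, a difference of −2.37 in replicate 1 and −1.70 in replicate 2. As deposited the differences were −0.66 and −0.44. Leaving out the 3 cells that held endothelial or macrophage markers, the corrected differences were −2.37 and −0.84, and the deposited ones −0.66 and 0.37, which do not share a sign. The median Hes6 was 1020 FPKM with Hes1 and 831 without, so the medians and the means differ in direction. The lower mean with Hes1 includes the 5 cells without Hes6. As deposited only 1 cell had Hes1 and no Hes6, so most of these zeros were set by the correction.

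Hes1 and Hey1 occurred together more often than the product of their shares in otic epithelium-like, early neuroblast-like, differentiating neuron-like and neural tube progenitor-like cells, as deposited and after correction. In epibranchial neuron-like cells 12 had both as deposited, just under the product, and 4 after correction, against 2.8. In otic epithelium-like cells 87 had both, against 79.1, and after correction 62, against 51.6. Mean log2 Hes1 was 6.28 in the 92 otic cells with Hey1 and 4.01 in the 44 without, a difference of 1.82 in replicate 1 and 2.71 in replicate 2. In wells without a source it was 2.89 and 2.86. Cells with Hey1 also had more detected genes, with a median of 4884 against 4528, or 4390 against 4318 without a source, and the part of depth in this was not tested. In cluster 2 the pair was found in 14 cells, against a product of 14.0.

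**Figure D5:**
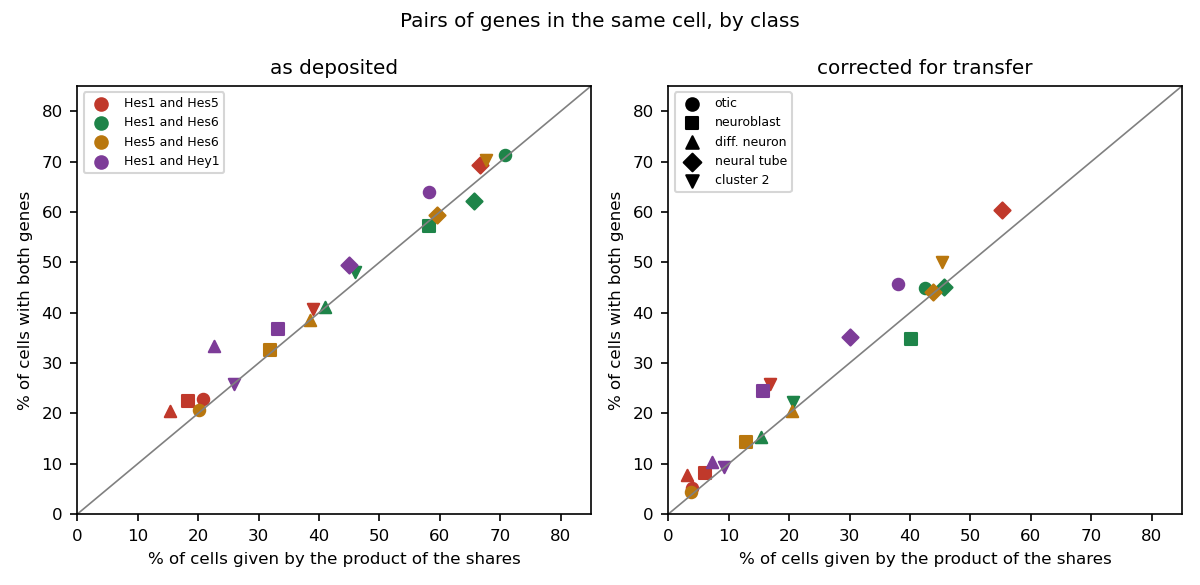
Percentage of cells holding both genes of a pair (y axis) against the percentage given by the product of their shares (x axis), with colour for the pair and symbol for the class, as deposited at left and corrected for transfer at right. The grey line marks equality, and Hes1 with Hey1 in otic epithelium-like cells lies above it in both panels (87 cells against 79.1 and 62 against 51.6).

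In cluster 2, Hes1 and Hes5 were found together about as often as the product of their shares as deposited, and more often after correction. Of the 12 cells without a source well, 4 had Hes1, Hes5 and Hes6, and 1 had Hes1 and Hes6. Another 3 had Hes5 and Hes6, and 1 had Hes5 alone of these genes. These cells are too few to show whether the pair exceeds its product. After correction, over all 54 cells of the cluster, 14 of the 15 cells with Hes1 also had Hes5, against a product of 9.1. Corrected mean log2 Hes5 was 8.71 with Hes1 and 4.03 without (3.70 and 5.35 by replicate). The part of the correction in this excess was not tested. As deposited the pair was found in 22 cells, against 21.1, and the Hes5 differences were 0.12 and 2.01. Hes5 in this cluster was also higher in the 21 cells with Sox2, the neural progenitor factor, at 8.15 against 3.54 (4.79 and 4.34 by replicate, corrected), and as deposited by 3.4 and 2.34. Median detected genes, counted as deposited, were 3861 with Sox2 and 4255 without, and the part of depth or of the correction was not tested. Hes6 was higher in cluster 2 cells with Dll1, by 4.08 and 2.94 as deposited.

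In neural tube progenitor-like cells Hes5 again went with Sox2. As deposited, 80 of 94 cells with Sox2 had Hes5 and 6 of 17 without it, with mean log2 Hes5 of 6.63 and 2.21 (5.1 and 3.42 by replicate). Without a source well the differences were 4.68 and 4.56, the latter from 3 cells without Sox2. Hes5 was also higher in cells with Dll1, by 2.42 and 1.62. Beside Mki67, a proliferation gene, Hes5 differed by −0.14 and 2.3 and Hes1 by −0.36 and 0.14, so neither pair of replicates shared a sign.

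Otic epithelium-like cells varied in Hes1 and Hey1 alongside genes of otic regions. Hey1 was higher in the 20 cells with Lfng, at a mean log2 of 5.80 against 3.19 (3.19 and 1.80 by replicate), and in wells without a source by 4.96 and 3.91, from 7 cells with Lfng. Hey1 was also higher with Sox2, by 0.50 and 2.17. Beside Jag1, Hes1 differed by 4.37 and −0.19 and Hey1 by 2.97 and 0.49. Hes1 was lower in the 61 cells with Tbx1, a factor of the non-neurogenic otic domain, by −0.66 and −0.71 as deposited, −1.07 and −1.42 after correction and −2.99 and −1.83 without a source well. Detected genes differed little there, with medians of 4732 and 4786, and the part of depth was not tested. Over the 3 otic clusters, Hes1 was found in 69 of 76 cells of cluster 1, 35 of 45 of cluster 4 and 13 of 15 of cluster 10, and Hey1 in 54, 26 and 12.

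In early neuroblast-like cells Hes6 was higher where the proneural gene Neurog1 or the ligand Dll1 was found. The 18 cells with Neurog1 had a mean log2 Hes6 of 10.14 and the other 31 had 8.63 (1.17 and 1.63 by replicate, with 3 such cells in replicate 1). The 21 cells with Dll1 had 9.92 and the other 28 had 8.63 (1.24 and 1.29). With cells holding endothelial or macrophage markers left out, the Neurog1 differences were 1.17 and 0.94 and the Dll1 differences 1.24 and 0.59. Hes1 differed by −3.13 and 2.66 with Dll1, with opposite signs.

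Across all cells the members were weakly correlated. Pearson's r of log2(FPKM + 1) was −0.16 for Hes1 and Hes6, 0.29 for Hes1 and Hey1, 0.12 for Hes1 and Hes5 and 0.01 for Hes5 and Hes6. In the 154 cells without a source these were −0.22, 0.37, 0.16 and 0.00. The cells share plates, replicates and class makeup, so these values describe the sample.

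The genes whose pattern was most like that of each member were ranked by the lower of the within-replicate correlations. For Hes5 they were Pou3f2 (0.67 and 0.65), a neural POU factor, Fabp7 (0.64 and 0.63), a radial glial lipid carrier, and Rfx4 (0.65 and 0.58), a neural tube factor. For Hes6 they were Insm1 (0.54 and 0.60), a neuronal differentiation factor, Btbd17 (0.54 and 0.53) and Eya2 (0.51 and 0.58), a placode cofactor. Fabp7, Insm1 and Eya2 are class markers. For Hes1 they were Phgdh (0.45 and 0.41), a serine synthesis enzyme, Zfp36l1 (0.39 and 0.44), an mRNA decay factor, and Id3 (0.40 and 0.37). The gene most like Hey1 was Hes1 (0.31 and 0.28), followed by Prrx2 (0.23 and 0.23), also a class marker, which fell to 0.10 without source wells, and Id1 (0.22 and 0.22). No gene exceeded 0.18 in both replicates for Hey2 or Heyl.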

How the data were processed

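The deposited table holds log2(FPKM + 1) per gene and cell: the authors' notes name TopHat, Cufflinks and mm10, per the submitters' processing notes, without versions, and the log scale was read from the values, since 99.69% of values above 0 gave numbers of 6 significant digits once undone. Of 19659 rows, 19494 genes with a unique GENCODE M21 symbol were used. Cells were clustered on 79 markers (15 principal components, 15 neighbours, Leiden resolution 1.0; scanpy 1.11.5). The log2 values of each class were averaged within a replicate, and the 16 means of 8 classes were fitted with limma 3.58.1 (R 4.3.3), with class and replicate as terms and a trended prior; 10185 genes detected in at least 5% of cells were tested, class markers left out, with Benjamini-Hochberg adjustment, two-sided. The fit was tested on simulated data. A planned comparison of hindbrain neuron-like cells used cluster 2, by number, because its leading genes held markers of differentiating neurons. Named were the members, the called genes of 9 Notch-related lists (up to 4 per list by size, and in places all of them), the 3 most alike genes, and fixed partner genes. Cell counts and co-occurrence carry no test, since cells of a replicate share their source. The members and lists were chosen with earlier results of these data known.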

Additional observations from a re-analysis of the deposited data

How the results depend on the processing

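Genes called counted 462 (neuroblast minus otic), 824 (neuron minus neuroblast), 573 (neural tube minus otic), 421 (neural tube minus neuroblast) and 701 (cluster 2 minus neural tube). In wells without a source they were 112, 19, 87, 66 and 80. With classes from the highest marker score they were 246, 249, 289 and 168 for the first 4, and with FPKM averaged before the log 266 and 361 for neuroblast and neural tube minus otic. Without the replicate block in the model they were 440, 741, 532, 375 and 619, and no call of a member changed. Leaving out a replicate leaves 1 mean per class and no test.

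Of 8 member calls, Hes6 in neuroblast minus otic and neural tube minus neuroblast held in all 9 tested alternatives, and the others were lost in 1 to 3, as given above. Hes6 in neuron minus neuroblast became called with FPKM averaged before the log (−0.73, adjusted p = 0.0426). Signs reversed 21 times, none of them for a called difference. With FPKM averaged before the log: Hes1 neural tube minus neuroblast −0.01, Hes5 neuron minus neuroblast −0.19, Hes5 cluster 2 minus neural tube 0.62, Hes6 neural tube minus otic 0.15, Hey2 neuron minus neuroblast −0.18 and Hey2 cluster 2 minus neural tube 0.07. In wells without a source: Hes5 (−0.22) and Hey1 (−1.66) neuron minus neuroblast, Hes6 neural tube minus otic 0.66, Hey2 (−0.38) and Heyl (−0.09) neuroblast minus otic, Hey2 neural tube minus neuroblast 0.20, and Hey2 (0.22) and Heyl (0.23) cluster 2 minus neural tube. With classes from the marker score: Hes5 neuron minus neuroblast −1.22, Hey1 neural tube minus neuroblast −0.09, Hey2 neuroblast minus otic −0.16 and Hey2 cluster 2 minus neural tube 0.01. With a pseudocount of 0.1: Hey1 neural tube minus neuroblast −0.05 and Hey2 neuroblast minus otic −0.06. With the 7 cells holding endothelial or macrophage markers left out: Hey2 neuroblast minus otic −0.08. The cause was not tested. Depth in reads is unknown, so an undetected gene is not shown to be absent.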
